A study of Homo sapiens with 4 samples.

Results

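HIPK3, SMARCA5, PVT1, CORO1C, CAMSAP1 and MTO1 are 6 human genes whose exons form circular RNAs (circRNAs) widely described in cancer. All circRNAs listed under these 6 host gene names were taken, without regard to their values. They are 25 of the 11760 circRNAs listed in the series and belong to 6 of its 4410 host genes. The hosts themselves were chosen with earlier results of these data known. For each host the circRNA that the cancer literature knows by the host's name, called here the known circle, was found by its hg19 coordinates within 1 base at both ends, and it was compared with the other circles of the same host in each library. All 6 known circles were found.

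The libraries were made from AGS, an established human gastric adenocarcinoma cell line, after transfection with FLAG-DDX5 (group DDX5) or with the FLAG-tagged empty vector (group NC), with 2 libraries in each group. DDX5 is a DEAD-box RNA helicase that acts in transcription and splicing, and the study asked whether its overexpression alters the circRNAs of these cells. It was expressed from a plasmid with a CMV promoter, above the DDX5 that AGS cells make themselves. Before library construction rRNA was removed and RNase R, which digests linear but not circular RNA, was applied, so the level of linear RNA, and with it any share of circular over linear RNA, was not measured. No time after transfection is given in the sources used here. The replicates are called biological in the study, but separate cultures are not stated, and all p-values rest on the spread between these libraries only.

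A circRNA forms when the spliceosome joins the donor site at the end of a downstream exon to the acceptor site at the start of an upstream exon. The join is called the back-splice junction, and reads across it are the evidence for the circle. Long introns on both sides of the circularized exons, and inverted repeats within them, are known to favour this reaction. Several circRNAs have been described as binding miRNAs or proteins in tumour cells. circHIPK3 comes from a homeodomain-interacting protein kinase gene and circSMARCA5 from the gene of an ISWI chromatin remodelling ATPase. circPVT1 comes from a long noncoding RNA gene that is often amplified in cancer, and circCORO1C from the gene of an actin-binding coronin. circCAMSAP1 comes from the gene of a protein that binds the minus ends of microtubules, and circMTO1 from the gene of an enzyme that modifies mitochondrial tRNA.

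The junction is what tells these circles apart, and it is shown for the circles the results turn on. Each line gives 15 bases at the end of the last exon in lower case, followed across the back-splice by 15 bases at the start of the first exon in capitals, read 5′ to 3′ on the transcript from GENCODE 29 (GRCh38).
circHIPK3 (exon 2): atctcggtactacagGTATGGCCTCACAAG
circSMARCA5 (exons 15 to 16): agagaaaaacaaaagGGAGGCTTGTGGATC
circCORO1C (exons 7 to 8): atgtgagattgccagAAAAATATGCAGGAA
circCAMSAP1 (exons 2 to 3): ttctggatcaacaagATAACATCCCTGAGG
CAMSAP1 exons 2 to 7: aggagctgaaagacgATAACATCCCTGAGG
CAMSAP1 exons 5 to 7: aggagctgaaagacgGTCCGCTATCGACGA
circMTO1 (exons 2 to 3): gtggggttgttttggGTCAGATGTCATGTA
MTO1 exons 8 to 9: ggctcacactgcgagGCTACGGTGTTCAGT
The circles of CAMSAP1 exons 2 to 3 and exons 2 to 7 have the same bases in capitals, because they start at the same acceptor. The circles of exons 2 to 7 and exons 5 to 7 have the same bases in lower case, because they end at the same donor. The junction of circPVT1 is named only.

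The libraries held 78377 back-splice reads for DDX5 replicate 1, 60178 for DDX5 replicate 2, 73173 for NC replicate 1 and 97961 for NC replicate 2. Levels are given as RPM, that is back-splice reads scaled to an equal total per library, and a single read equalled 10.2 to 16.6 RPM. A circle has 1 junction whatever its length, and levels of circles were compared on this scale without a correction for length. A count of 0 allows up to 3 reads, which is between 30.6 and 49.9 RPM, and these limits and all intervals below cover counting error only. A lower level in these bulk samples cannot separate fewer cells with a circle from less of it per cell. Of 14 epithelial and gastric marker genes, 4 were hosts with back-splice reads, against 0 of 12 stromal, endothelial and immune markers. These counts say little of the cell type, since circRNA tables do not hold linear RNA. DDX5 itself is not among the hosts listed, so the transfection could not be checked in these data.

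Reads were found for 18 of the 25 circles, and the other 7 had 0 reads in all 4 libraries. Of the 18, 4 had fewer than 10 reads in total, and 14 entered the tests, among them all 6 known circles. The 6 hosts held 7157 back-splice reads, 2.31% of all reads of the series, and 6619 of these (92.5%) lay on the 6 known circles. By mean RPM over the 4 libraries, circCAMSAP1 was rank 4 of the 7587 circRNAs with reads, circPVT1 rank 8, circCORO1C rank 19, circHIPK3 rank 38 and circSMARCA5 rank 39. circMTO1 was rank 2708. Thus 5 of the known circles were among the most abundant circRNAs of AGS cells, and circMTO1 was near the limit of detection.

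**Figure D1:**
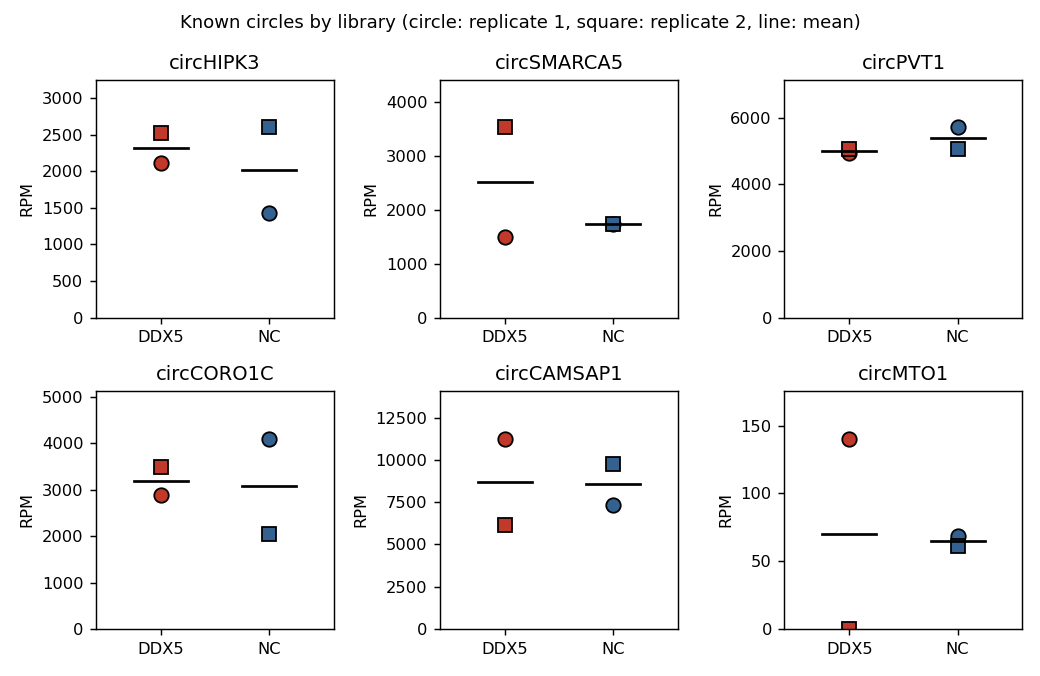
Level of the 6 known circles in RPM in the 2 DDX5 and the 2 NC libraries, with a panel for each circle, a circle for replicate 1, a square for replicate 2 and a line for the mean. The points of the groups overlap for 5 circles, circPVT1 has both DDX5 points below both NC points, and circMTO1 is at 0 reads in DDX5 replicate 2.

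No circle of the 6 hosts passed the test of a change between DDX5 and NC cells. By the quasi-likelihood test of edgeR with Benjamini-Hochberg adjustment over all 4671 circRNAs tested, 0 of 14 were past an adjusted p of 0.05, against 4 circRNAs or 0.0856% of all tested. At an unadjusted p under 0.05 by edgeR there were 2 of 14, against 2.65% of all. DESeq2 and limma on log2(RPM + 1) also gave 0 of 14 at the adjusted threshold and 2 of 14 at the unadjusted one. The exact test of edgeR gave 0 and 0. Over all 4671 circRNAs, 124 passed the unadjusted threshold with the quasi-likelihood test of edgeR. The numbers were 166 with DESeq2, 479 with limma and 16 with the exact test. With a minimum of 20 reads in total, 1 circle passed the unadjusted threshold, against 58 of all 2884 circRNAs tested at that minimum. With the replicate number as a block 0 circles passed it, against 75 of all 4671. In 3 of the 14 circles both libraries of a group lay above both of the other group, against 23.3% of all circRNAs tested, and these were circPVT1 and 2 minor circles of CAMSAP1. The median log2 fold change, DDX5 over NC, was 0.02 for the 6 known circles, with a range from −0.22 to 0.40, and −0.30 for the 8 other circles tested. The median over all circRNAs tested was −0.27, and −0.16 with scaling by library size alone. These medians are not at like detection, since only 1011 of all circRNAs tested were found in all 4 libraries. Among circRNAs found in all 4, the median was −0.042 over all 1011 and −0.047 for the 5 known circles. With reads summed per host gene, 0 of the 6 hosts were past the adjusted threshold of edgeR, against 0% of 2703 hosts, and 0 of 6 at the unadjusted one, against 2.52%.

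**Figure D2:**
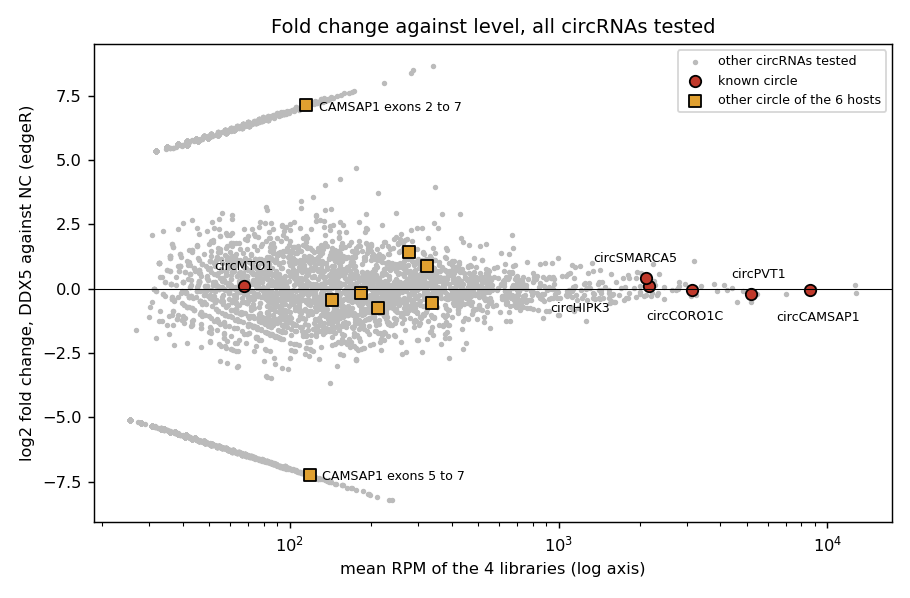
Log2 fold change of DDX5 over NC from edgeR against the mean RPM of the 4 libraries (log axis) for all 4671 circRNAs tested, with the 6 known circles and the 8 other circles of their hosts marked. The known circles lie between −0.22 and 0.40, and the circles of CAMSAP1 exons 2 to 7 and exons 5 to 7 lie in the outer bands of circRNAs with 0 reads in both libraries of a group.

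circHIPK3 is exon 2 of 17 of HIPK3, 1099 nt that hold the start codon, between introns of 28523 and 40998 nt (chromosome 11, 33307959 to 33309057, plus strand). It was the only circle of HIPK3 in the series. It had 2118 and 2526 RPM in DDX5 replicates 1 and 2, and 1435 and 2603 RPM in NC replicates 1 and 2. The NC libraries enclosed both DDX5 libraries, and the group means were 2322 ± 288 (DDX5) and 2019 ± 826 RPM (NC; SD, n = 2). The log2 fold change was 0.08 (SE 0.32, unadjusted p = 0.804 by edgeR). The replicates of NC differed 1.81-fold (95% interval 1.44 to 2.30), more than counting error allows, whereas those of DDX5 differed 1.19-fold (0.951 to 1.495).

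circSMARCA5 joins exons 15 and 16 of 24 of SMARCA5 into a circle of 269 nt (chromosome 4, 144464662 to 144465125, plus strand). Its level was 1493 and 3523 RPM in the DDX5 libraries and 1736 and 1725 RPM in the NC libraries. A single library, DDX5 replicate 2, stood above the other 3, which differed little. The means were 2508 ± 1436 and 1730 ± 7.38 RPM (SD, n = 2) with a log2 fold change of 0.40 (SE 0.33, edgeR adjusted p = 0.9503), and the log2 fold change was −0.25 without DDX5 replicate 2 and 0.88 without DDX5 replicate 1. The replicates differed 2.36-fold in DDX5 cells (1.87 to 2.98) and 1.01-fold in NC cells (0.793 to 1.27). Among the 115 circRNAs with a mean of at least 1000 RPM in the series the median replicate ratio was 1.20 in DDX5 cells, with 10% of them above 1.82.

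The circle is short enough to be shown whole. Exon 15 (149 nt) is in lower case and exon 16 (120 nt) in capitals, from the acceptor to the donor that are joined in the circle.
circSMARCA5: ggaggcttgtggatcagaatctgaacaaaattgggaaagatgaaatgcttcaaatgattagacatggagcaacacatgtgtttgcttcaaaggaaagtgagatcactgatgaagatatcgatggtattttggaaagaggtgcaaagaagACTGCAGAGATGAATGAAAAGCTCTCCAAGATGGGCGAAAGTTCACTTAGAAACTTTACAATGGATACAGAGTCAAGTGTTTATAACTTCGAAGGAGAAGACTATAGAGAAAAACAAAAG
All of it is coding sequence of the linear mRNA. The known circle took 99.0% of the reads of SMARCA5. Its share was 95.1% of reads in DDX5 replicate 1 (exact Clopper-Pearson 95% interval 89.7 to 98.2) and 100% in the other 3 libraries, with lower limits from 97.1 to 98.3%. The other reads were 6 on a circle of exons 4 to 6, in DDX5 replicate 1 alone. The circles of exons 7 to 9, 12 to 13 and 15 to 17 were listed with 0 reads in all libraries.

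circPVT1 lies on chromosome 8 from 128902835 to 128903244, plus strand, within the noncoding PVT1 gene. It had 4938 and 5052 RPM in the DDX5 libraries and 5712 and 5073 RPM in the NC libraries. Both DDX5 values were below both NC values, though DDX5 replicate 2 and NC replicate 2 were almost level. The means were 4995 ± 80.6 and 5393 ± 452 RPM (SD, n = 2), with a log2 fold change of −0.22 (SE 0.18, edgeR unadjusted p = 0.219, adjusted p = 0.9503). The replicates differed by no more than counting error allows, 1.02-fold in DDX5 cells (0.877 to 1.19) and 1.13-fold in NC cells (0.986 to 1.28), and the larger of these ratios was the lowest among the known circles. A longer circle from the same acceptor, ending at 128951922, was listed with 0 reads in all libraries.

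circCORO1C joins exons 7 and 8 of 11 of CORO1C, 251 coding nt (chromosome 12, 109046048 to 109048186, minus strand). It had 2896 and 3490 RPM in the DDX5 libraries and 4100 and 2042 RPM in the NC libraries. The NC libraries again enclosed both DDX5 libraries. The means were 3193 ± 420 and 3071 ± 1455 RPM (SD, n = 2), and the log2 fold change was −0.05 (SE 0.25, edgeR adjusted p = 0.99996), which became 0.06 with scaling by library size alone. The replicates differed 2.01-fold in NC cells (1.67 to 2.41) and 1.20-fold in DDX5 cells (0.994 to 1.46).

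The known circle held 96.2% of the CORO1C reads in DDX5 replicate 1 (92.9 to 98.2), 91.3% in DDX5 replicate 2 (86.9 to 94.6), 91.2% in NC replicate 1 (87.6 to 94.0) and 90.9% in NC replicate 2 (86.3 to 94.4). These shares differed by 2.70 percentage points between the group means, and by 0.26 points without DDX5 replicate 1. The difference thus rested mostly on that library. The two-sided exact permutation test gave the smallest p that 2 against 2 libraries can give. That p is above 0.05, so the test cannot decide whether the share changed. A second circle, of exons 4 to 5 (109052514 to 109055934), was found in all 4 libraries at 115 and 216 RPM with DDX5 against 396 and 122 RPM with NC. Its groups overlapped, with a log2 fold change of −0.76 (SE 1.65, edgeR adjusted p = 0.99996). A circle of exons 2 to 3 had 8 reads in NC replicate 2 alone, one of exon 2 had 7 reads in DDX5 replicate 2 alone, and the circle of exons 4 to 8 had 0 reads.

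**Figure D3:**
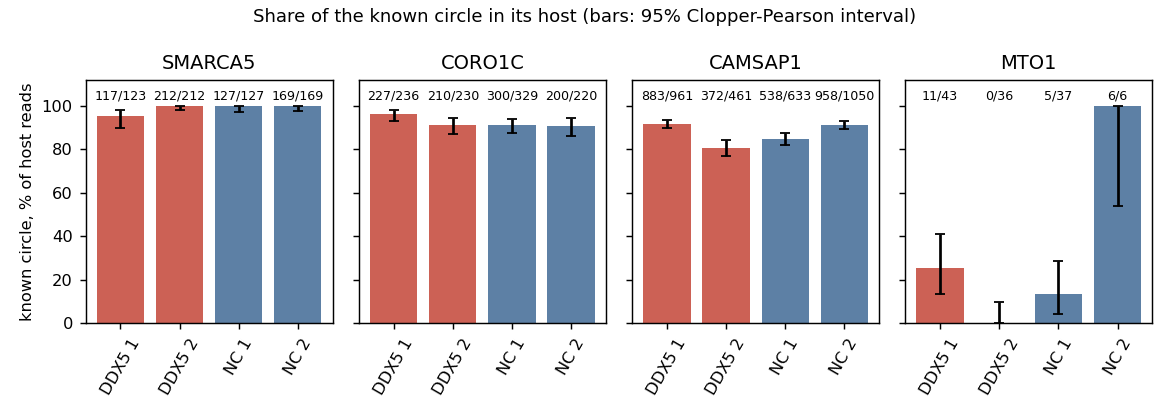
Share of the back-splice reads of SMARCA5, CORO1C, CAMSAP1 and MTO1 that lie on the known circle, in percent, as a bar for each library with its exact 95% binomial interval and the reads above it. Those of CAMSAP1 run from 80.7 to 91.9%, and those of MTO1 from 0 to 100%.

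CAMSAP1 gave the most reads of the 6 hosts and the most circles, 9 listed and 7 with reads, and was rank 3 among all host genes by summed RPM. circCAMSAP1 joins exons 2 and 3 of 17, 425 coding nt between introns of 23921 and 15096 nt (chromosome 9, 138773479 to 138774924, minus strand). It had 11266 and 6182 RPM in the DDX5 libraries and 7352 and 9779 RPM in the NC libraries. The DDX5 libraries held the highest and the lowest value, and both NC libraries lay between them. The means were 8724 ± 3595 and 8566 ± 1716 RPM (SD, n = 2), with a log2 fold change of −0.06 (SE 0.12, edgeR adjusted p = 0.99996), which became 0.03 with scaling by library size alone. The replicates differed 1.82-fold in DDX5 cells (1.61 to 2.06) and 1.33-fold in NC cells (1.20 to 1.48), more than counting error allows in either group.

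The known circle took 91.9% of the CAMSAP1 reads in DDX5 replicate 1 (89.97 to 93.5), 80.7% in DDX5 replicate 2 (76.8 to 84.2), 85.0% in NC replicate 1 (82.0 to 87.7) and 91.2% in NC replicate 2 (89.4 to 92.9). The shares split the libraries across the groups, with DDX5 replicate 1 and NC replicate 2 high and the others low. The group means were 86.3 ± 7.91% and 88.1 ± 4.42% (SD, n = 2; two-sided exact permutation p = 1). The other circles of CAMSAP1 together had 78, 89, 95 and 92 reads in DDX5 replicates 1 and 2 and NC replicates 1 and 2. In RPM they were at 995 and 1479 with DDX5 against 1298 and 939 with NC. The libraries with the high shares were also the ones with the most back-splice reads, and the part of depth in this split was not tested.

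All 6 other circles of CAMSAP1 with reads used the acceptor of exon 2 or the donor of exon 7. The exon 2 acceptor carried 2941 reads, 94.7% of the host, and the exon 7 donor 197 reads, 6.34%. The introns outside these sites are 23921 nt upstream of exon 2 and 22552 nt downstream of exon 7. The circles that ended at the exon 7 donor held 4.27% and 14.8% of the host's reads in the DDX5 replicates, against 10.6% and 2.00% in the NC replicates, so they too were high in DDX5 replicate 2 and NC replicate 1. The circles of exons 3 to 7 and 12 to 14 had 0 reads in all libraries.

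The circle of exons 2 to 4 had 383 and 183 RPM with DDX5 against 205 and 582 RPM with NC. That of exons 2 to 5 had 89.3 and 166 RPM with DDX5 against 178 and 143 RPM with NC. Both were found in all 4 libraries, with groups that overlapped and log2 fold changes of −0.57 (SE 1.09) and −0.45 (SE 2.24). The circle of exons 6 to 7 had 230 and 598 RPM in DDX5 cells, 287 RPM in NC replicate 1 and 0 in NC replicate 2 (log2 fold change 1.42, SE 1.36, edgeR unadjusted p = 0.297), and its log2 fold change was 0.44 without NC replicate 2 and 7.93, a fit against 0 reads, without NC replicate 1. The circle of exons 4 to 7 was found in 1 library of each group, at 366 RPM in DDX5 replicate 2 and 369 RPM in NC replicate 1.

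Another pair of circles with the exon 7 donor differed in which group they were found in. The circle of exons 2 to 7 (138741983 to 138774924, 885 nt) was at 23 and 10 reads with DDX5, 293 and 166 RPM, and at 0 in both NC libraries. Its mean RPM in DDX5 cells was 6.42-fold a floor of 3 reads per NC library. This ratio leaves out the error of the DDX5 counts and the spread between replicates, so it is not a lower limit. The circle of exons 5 to 7 (138741983 to 138754454, 379 nt) had 0 reads in both DDX5 libraries and 19 and 21 reads in the NC libraries, 260 and 214 RPM. Its mean RPM in NC cells was 5.38-fold the same floor in the DDX5 libraries, again not a lower limit. These were the 2 circles past the unadjusted threshold, with an unadjusted edgeR p of 0.0388 for exons 2 to 7 and 0.0305 for exons 5 to 7, and an adjusted p of 0.9503 for each. By DESeq2 their unadjusted p-values were 0.0141 and 0.0138, and by the exact test of edgeR 0.193 and 0.153.

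Reads in both libraries of a group and in neither of the other group were found for 458 of the 4671 circRNAs tested, 9.81%, against 2 of 14 here. A circle with at least 10 reads in a library and 0 in the other library of its group was frequent in the series, in 3028 of 8497 cases (35.6%), and occurred in 5 of 43 cases among the circles of the 6 hosts (11.6%). These percentages are not at like levels, since the 43 cases include the 5 abundant known circles found in all 4 libraries. The test of usage, which asks whether a circle's share within its host changed, was done with diffSpliceDGE of edgeR over 3158 circRNAs. It gave 0 of 11 circles at the adjusted threshold, against 0% of all, and 2 of 11 at the unadjusted one, against 1.11%. These were again exons 2 to 7, with an unadjusted edgeR p of 0.0376, and exons 5 to 7, with 0.0338, and both had an adjusted p of 0.894. With any 1 library left out, the unadjusted usage p of both circles was above 0.05, as it was with the replicate block. In the edgeR test of the level, the unadjusted p of exons 2 to 7 was also above 0.05 with any 1 library left out, and that of exons 5 to 7 was 0.236 without NC replicate 1 and 0.173 without NC replicate 2.

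**Figure D4:**
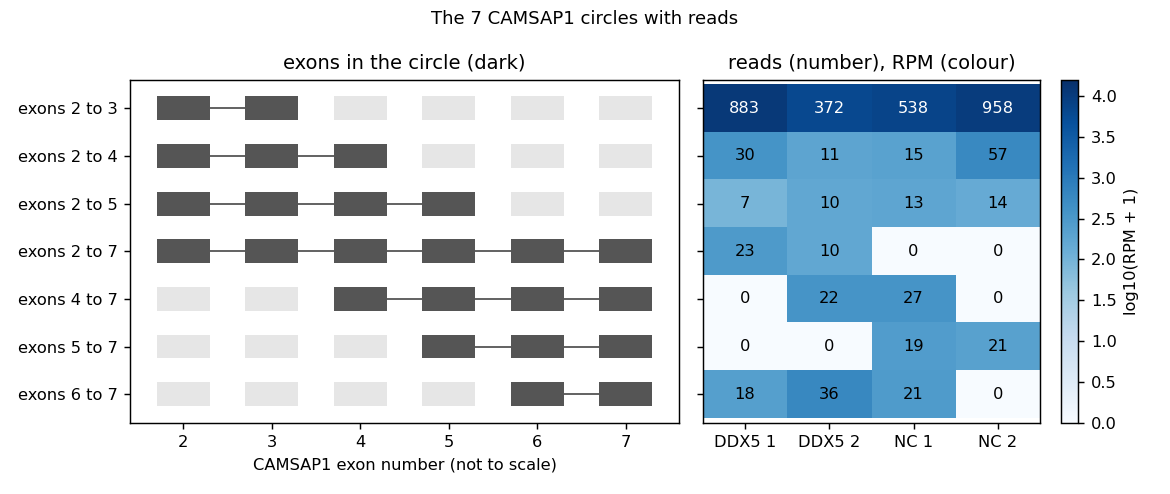
The 7 circles of CAMSAP1 with reads, with the exons each holds in dark on the left (not to scale) and, on the right, its reads in each library as numbers and log10(RPM + 1) as colour. The circle of exons 2 to 3 is far above the others in each library, exons 2 to 7 is at 0 in both NC libraries, and exons 5 to 7 is at 0 in both DDX5 libraries.

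MTO1 was the exception among the 6 hosts, since its known circle was not its main one. circMTO1 joins exons 2 and 3 of 13, 318 coding nt (chromosome 6, 74175932 to 74176329, plus strand). Its reads numbered 11 and 0 with DDX5 against 5 and 6 in the NC libraries, that is 140, 0, 68.3 and 61.3 RPM. The means were 70.2 ± 99.2 and 64.8 ± 5.01 RPM (SD, n = 2), and a change was not detectable at this depth (log2 fold change 0.08, SE 3.803, by edgeR).

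The most abundant circle of MTO1 was that of exons 8 to 9 (74190398 to 74191967, 336 nt), rank 642 of all circRNAs with reads. It had 408 and 449 RPM in the DDX5 libraries, 437 RPM in NC replicate 1 and 0 in NC replicate 2. The libraries with reads were close to one another, and NC replicate 2 was at 0 although it had the most back-splice reads in total. The log2 fold change was 0.89 (SE 1.18, edgeR unadjusted p = 0.449), with −0.09 without NC replicate 2 and 8.02, a fit against 0 reads, without NC replicate 1. The sum over the MTO1 circles was 573 ± 35.1 RPM with DDX5 against 283 ± 314 RPM with NC (SD, n = 2; log2 fold change 0.98, SE 0.97, edgeR adjusted p = 0.9996), and its log2 fold change was 0.14 without NC replicate 2 and 3.14 without NC replicate 1. The remaining circle, of exons 5 to 6, had 9 reads in DDX5 replicate 2 alone.

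The known circle thus held 25.6% of the MTO1 reads in DDX5 replicate 1 (13.5 to 41.2), 0% in DDX5 replicate 2 (0 to 9.74), 13.5% in NC replicate 1 (4.54 to 28.8) and 100% in NC replicate 2 (54.1 to 100), where it rested on 6 reads. Over all libraries its share was 18.03%. The share was lower by 44.0 percentage points in DDX5 cells by the group means (two-sided exact permutation p = 0.667). This difference was less than the SD of the NC replicates, 61.2 points, and more than that of the DDX5 replicates, 18.1 points. With the reads summed over the libraries of a group it was lower by 11.7 percentage points. In the other hosts with more than 1 circle with reads the known circle held 99.0% (SMARCA5), 92.3% (CORO1C) and 88.6% (CAMSAP1) over all libraries. In the 647 hosts of the series with at least 2 circles and 100 reads, the main circle held a median of 65.8% of reads, with quartiles of 48.7 and 85.3%.

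circMTO1 has been described as binding miR-9 in hepatocellular carcinoma. The mature miR-9-5p of RefSeq (GRCh38.p14) is shown with its seed, bases 2 to 8, in capitals.
miR-9-5p: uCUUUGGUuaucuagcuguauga
The complement of the seed, ACCAAAG, was searched on the transcript strand and across the junction of the circles. It had 0 matches in circMTO1 and 0 in each of the other 4 known circles placed on exons. In the first 318 nt of the 4693 circles placed with reads that are at least as long as circMTO1 and lie on other chromosomes than PVT1, 4.41% held a match. The absence of these letters says nothing of other kinds of miRNA binding.

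Exons were assigned to 23 of the 25 circles, those of 5 hosts, and the circles of PVT1 were not assigned. Of the 5 known circles placed, 4 join 2 exons and circHIPK3 has 1, while 34.2% of the circles placed with reads have 2 exons. The spliced length of the 17 circles with reads had a median of 336 nt, against 382 nt over the 7314 circles placed with reads. Both flanking introns were over 10000 nt in 8 of 17, namely circHIPK3, 5 circles of CAMSAP1 and 2 minor circles of CORO1C, against 19.5% of the circles placed with reads. At the other end, the main circle of MTO1 lay between introns of 307 and 204 nt, and 0.957% of the circles placed with reads had both introns under 500 nt. circSMARCA5, at a similar level to circHIPK3, lay between introns of 3013 and 764 nt. These are properties of the gene models and circles of 1 host share them, so they were not tested.

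**Figure D5:**
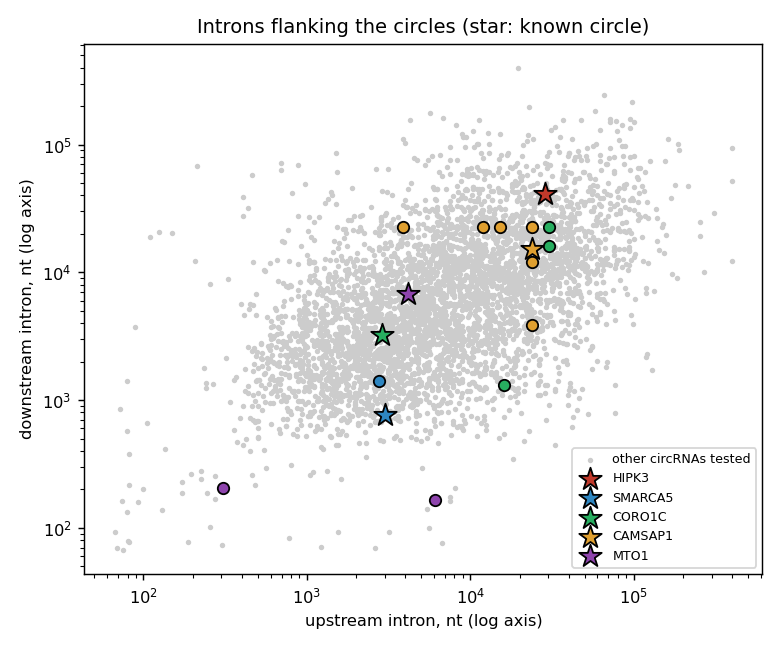
Length of the intron downstream against that of the intron upstream of each circle, in nt (log axes), with the known circles of 5 hosts as stars, their other circles with reads as coloured points and the other circRNAs tested in grey. circHIPK3 and circCAMSAP1 have introns over 10000 nt on both sides, and the circle of MTO1 exons 8 to 9 has introns of 307 and 204 nt.

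The hosts whose summed levels over the 4 libraries were nearest to each member were found by the distance between their log2(RPM + 1) values. For SMARCA5 the nearest was ATXN2 (distance 0.200), at 1506 and 3224 RPM with DDX5 and 1790 and 1572 RPM with NC. For MTO1 it was ZNF512 (distance 0.423), at 600 and 582 RPM in DDX5 cells, 383 RPM in NC replicate 1 and 61.2 RPM in NC replicate 2. LRCH1 was nearest to HIPK3 (0.300) and DHX34 to PVT1 (0.178), while CORO1C and CAMSAP1 had no host closer than UBA2 (0.614) and ASXL1 (0.916). These distances, over 4 libraries, are given as a description, and a similar profile follows from the choice of the nearest hosts.

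For comparison, 20 other hosts of circRNAs described in cancer were taken as a list, of which 15 had reads and 14 were tested as sums. Their summed log2 fold changes had a median of 0.06, with 9 positive and 5 negative, against 0.07 for the 6 hosts here and −0.13 for all 2703 hosts. Of the 39 circRNAs of this list tested, 0 were past the adjusted threshold of edgeR, with 1 higher and 1 lower in DDX5 cells at the unadjusted threshold. Of the 14 circles of the 6 hosts tested, 8 (57.1%) were found in all 4 libraries. The share was 21.6% over all circRNAs tested and 23.1% (9 of 39) in the list of other hosts. The 8 were 5 known circles, all of them abundant, and 3 of the 8 other circles of the 6 hosts (37.5%).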

How the data were processed

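Back-splice reads were counted in 4 RNase R-treated libraries of AGS cells, 2 of cells transfected with FLAG-DDX5 and 2 with the empty vector, grouped by the sample labels. The deposited tables hold, for each circRNA, raw counts and RPM values, the latter made by the authors and equal to the counts over the library total within 0.00499 RPM. All columns were used. The paper names CIRCexplorer2 and CIRI2 as callers, whereas BWA and hg38 appear in the processing notes of the submitters, with no versions. The coordinates fit hg19 and are printed as the files give them. The smallest count above 0 is 2.

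The test was edgeR's quasi-likelihood F test (edgeR 4.0.16 in R 4.3.3, TMM factors, at least 10 reads in total, Benjamini-Hochberg adjustment over all features, threshold 0.05), per circRNA, per host sum and, with diffSpliceDGE, for usage within the host. SE is the log2 fold change divided by the root of F. For circRNAs this SE and the edgeR p-value rest on the spread of circRNAs at a similar level. The SE can thus be below the spread of a circle's own replicates, and the p-value does not measure that spread. The scripts were tested on simulated data. Alternatives were other scalings and read minimums, DESeq2 1.42.0, the edgeR exact test, limma 3.58.1 on log2(RPM + 1) and log2(RPM + 0.1), a replicate block, and fits without each library in turn, in which the lone library is taken to vary as the other group does. The ratio of replicates has an exact interval conditional on their counts.

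Exons of GENCODE 29 (GRCh38) were matched by genomic span, which placed 11325 of 11760 circRNAs (96.3%). Python 3.11.15 with pandas 2.3.3 was used for the tables. The circles named are the known circles and the other circles of the 6 hosts with at least 10 reads, and others are given by reads. The hosts and lists were chosen with earlier results of these data known. The linear RNA, qPCR, protein and animal experiments were not analysed here.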

Additional observations from a re-analysis of the deposited data

How the results depend on the processing

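No circle or host of the 6, and no usage value, passed the adjusted threshold under any alternative run. The lowest adjusted p was 0.0999 by limma on log2(RPM + 0.1), the same for CAMSAP1 exons 2 to 7 and exons 5 to 7. Of all circRNAs, 4 passed by edgeR as set, 0 with at least 20 reads, 2 by DESeq2, 0 by the exact test, 0 by limma with either pseudocount, 13 with a replicate block, and 0 to 33 with a library left out. Of host sums, 0 passed as set, 2 with any read, 1 by DESeq2, 1 by the exact test, 3 with the block, and 0 to 12 with a library left out. Usage calls were 0 under all settings. The same-numbered libraries of the groups did not deviate together (correlation of deviations 0.00541), so the numbers are not treated as pairs. With the block, 0 circles of the 6 hosts passed the unadjusted threshold in level and 0 in usage, against 2 and 2 without it. Over all circRNAs the numbers fell too, to 75 in level and 18 in usage, against 124 and 35 without the block. The shares were not tested in pairs.

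Log2 fold changes near 0 turned sign. For circCORO1C (−0.05) they were 0.013 with DESeq2 size factors, 0.057 with library size alone, 0.015 by DESeq2, 0.14 and 0.14 by limma and 0.027 with the block. For the CORO1C sum they were 0.020 with library size alone, 0.094 and 0.094 by limma and 0.044 with the block. The circCAMSAP1 value was 0.026 with library size alone. The CAMSAP1 sum was 0.017, 0.041, 0.0068, 0.018, 0.0093 and 0.0093 (DESeq2 size factors, library size alone, at least 20 reads, DESeq2, limma with either pseudocount). CAMSAP1 exons 4 to 7 had 0.015 and a usage of 0.078 with the block. circMTO1 had −2.47 and −4.11 by limma and −1.74 with the block. The cause was not tested.

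With a library left out the log2 fold changes ranged from −0.32 to 0.63 (circHIPK3), −0.25 to 0.88 (circSMARCA5), −0.42 to 0.49 (circCORO1C), −0.62 to 0.35 (circCAMSAP1), −5.39 to 1.06 (circMTO1), −0.085 to 8.02 (MTO1 exons 8 to 9), −1.33 to 0.26 (CORO1C exons 4 to 5), −1.26 to 0.43 (CAMSAP1 exons 2 to 4) and −6.93 to 6.72 (exons 4 to 7). The sums ranged from −0.22 to 0.65 (HIPK3), −0.15 to 0.94 (SMARCA5), −0.44 to 0.54 (CORO1C), −0.42 to 0.32 (CAMSAP1) and 0.14 to 3.14 (MTO1). CAMSAP1 exons 6 to 7 ranged from 0.44 to 7.93 in level and from 0.19 to 5.66 in usage. Usage ranged from −0.81 to 0.28 (exons 2 to 5), −0.64 to 0.19 (exons 2 to 4), −5.01 to 4.82 (exons 4 to 7) and −0.092 to 0.038 (circCAMSAP1). circPVT1 kept its sign, from −0.25 to −0.16. The differences in share ranged from −4.88 to 0 points (SMARCA5), 0.26 to 5.14 (CORO1C), −7.42 to 3.77 (CAMSAP1) and −87.2 to −0.72 (MTO1), and the MTO1 difference was −11.7 with reads summed over a group.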
